A study of Ganoderma lucidum with 6 samples.

Results

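The enzymes described here cut or modify chitin, the tough sugar polymer of the fungal cell wall, in mycelia of Ganoderma lucidum, a wood-decaying mushroom grown for its polysaccharides and triterpenoids. They were taken by their annotation, with no measured value in the rule. A gene entered if its KOG name (a description carried over from a group of related proteins) contained chitinase, glucanase or chitin deacetylase, or if it carried the Gene Ontology (GO) identifier for chitinase activity or for chitin breakdown. Genes with identifiers for cellulose or xylan breakdown and synthases of chitin or glucan were to be left out, and 0 genes were. The rule found 30 of 16113 genes, 21 of them by both their KOG name and GO and 9 by GO alone. No KOG name in the table contained glucanase or chitin deacetylase, so the 30 genes hold no glucanase under that rule. They comprise 27 chitinases, 2 genes with the identifier for chitin deacetylase and 1 with that for beta-N-acetylhexosaminidase.

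RNA was sequenced from wild-type mycelia on day 3, with sodium nitrate as the nitrogen source in 3 libraries and ammonium sulfate in the other 3. The series asks which genes differ between the nitrate and the ammonium salt. Both groups are the wild type, and no silenced strain is among the libraries analysed here. The salts differ in sodium and sulfate as well as in nitrogen, and the effects of these cannot be told apart. The labels do not say whether the 3 libraries of a group are separate cultures. All p-values thus rest on the spread among these libraries, which may be technical.

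Chitin is a chain of N-acetylglucosamine that lies in the inner wall of fungi, where it is bound to beta-glucan. Chitinases cut the chain and so loosen the wall where hyphae extend, branch, fuse or lyse, and they also release sugar and nitrogen from dead wall material. Chitin deacetylases remove acetyl groups and turn chitin into chitosan, which is more soluble and positively charged. Hexosaminidases free single N-acetylglucosamine units from the fragments that chitinases leave. In Saccharomyces cerevisiae a secreted chitinase separates daughter cells from their mothers. The chitinases here fall into 12 genes of the KOG group KOG2806, filed under carbohydrate metabolism, 9 of KOG4701, filed under cell wall biogenesis, and 6 without a KOG name.

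Libraries held 19979528 to 24767602 gene counts in nitrate and 24059697 to 27604895 in ammonium. The first principal component of log2 CPM (library-scaled counts), with 53.3% of the variance, separated the groups. The second, with 29.9%, ran within both groups and had nitrate replicate 1 and ammonium replicate 1 at its opposite ends. Of the 30 genes, 26 passed the filter on low counts and were tested in the fit over all 11993 tested genes. GL29216-G had 0 to 13 counts per library and did not pass. The remaining 3, GL16442-G, GL20458-G and GL23035-G, had a count of 0 in every library, for which the limit is 3 counts, or 0.121 to 0.150 CPM in nitrate and 0.109 to 0.125 CPM in ammonium, counting error only. Levels below are FPKM as deposited by the authors, that is fragments scaled by transcript length and library size, as mean ± SD over 3 libraries. Each log2 fold change is nitrate over ammonium, given ± its standard error (SE), from edgeR's quasi-likelihood test, with Benjamini-Hochberg adjusted p-values over all tested genes.

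On nitrate, the most abundant of these genes, the chitin deacetylase GL29877-G, was lower than on ammonium, while 3 chitinases of moderate or low level, GL18544-G, GL29255-G and GL25941-G, were higher. The abundant chitinases did not pass the test, and the summed chitinase level overlapped between the groups. At an adjusted p under 0.05, 4 of the 26 tested genes differed (15.4%), beside 15.6% of all tested genes, so the share of called genes was close to the background. The 3 that rose (11.5%) stand beside 7.50% of all tested genes called higher, and the 1 that fell (3.85%) beside 8.13% called lower. Fold changes were above 0 in 11 genes and below 0 in 15, with a median of -0.07, against 0.01 for all tested genes. The FPKM of the groups did not overlap in 4 genes higher and 6 lower in nitrate, beside 19.1% and 17.9% of all tested genes and 37.0% in either direction.

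The counts depended on the libraries used. With 1 library left out, 0 to 2 genes were called higher and 1 or 2 lower. Higher genes numbered 0 without ammonium replicate 3, and 1 without ammonium replicate 2 or without nitrate replicate 3. Those fits also called the fewest of all tested genes higher, 273, 328 and 315 in that order, against 511 to 910 in the others. Lower genes numbered 2 without ammonium replicate 1 or 2. Of all tested genes, those fits called 1036 and 466 lower, within a range of 382 to 1036 over all fits that left out 1 library. Without both nitrate replicate 1 and ammonium replicate 1, a setting chosen once the data had been seen, 4 genes were called higher and 6 lower, beside 19.6% and 21.0% of all genes tested in that fit. GL29877-G, GL18544-G, GL29255-G and GL25941-G were among them. The others called lower in that fit were the chitinases GL24125-G, GL24162-G, GL25627-G, GL22188-G and GL17045-G. The other called higher was the chitinase GL26628-G. DESeq2 called 3 higher and 3 lower, beside 11.0% and 10.8% of its tested genes. Those higher were the same as in edgeR, and those lower were GL29877-G and the chitinases GL22188-G and GL17045-G.

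**Figure D1:**
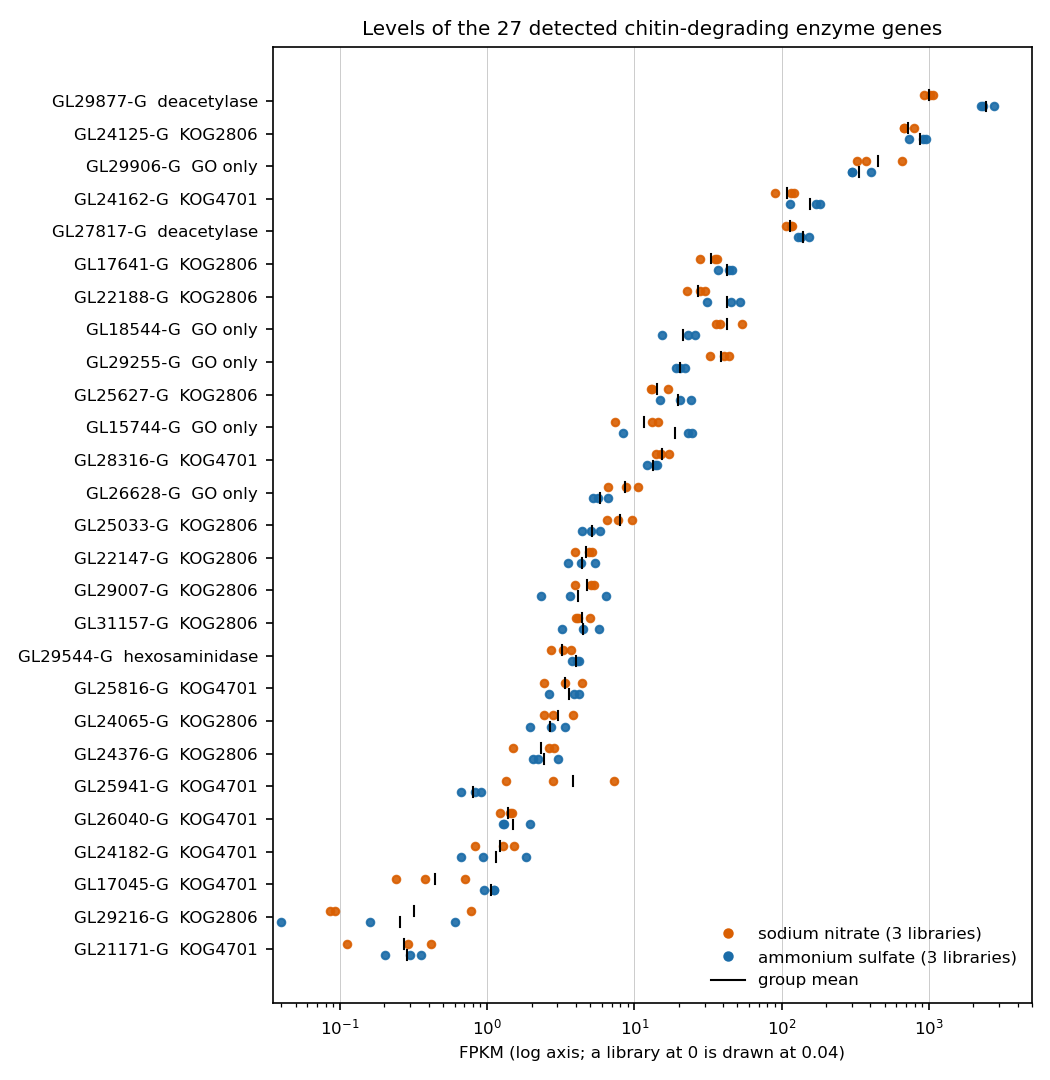
FPKM on a log axis of the 27 genes with a count in any library, ordered by their mean, with 1 point per library (nitrate above ammonium in each row), the group mean as a bar, and the annotation group beside the name. GL29877-G stands at the top with its groups apart, and most rows below it have overlapping groups.

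The most abundant of the 30 genes was a chitin deacetylase. GL29877-G lies on scaffold 1 at 1426408 to 1428987, on the minus strand, in the coordinates of the deposited table (scaffolds named GaLu96scf), and it ranked 48 among all genes by mean FPKM. It stood at 1055, 1020 and 920.0 FPKM in nitrate replicates 1 to 3, against 2267, 2329 and 2743 FPKM in ammonium replicates 1 to 3. Every nitrate library lay far below every ammonium library, and the spread within each group was narrow. The means were 998 ± 70.2 FPKM in nitrate and 2446 ± 259 FPKM in ammonium (SD, n = 3 each), a log2 fold change of -1.30 ± 0.20 (SE, adjusted p = 0.00568, edgeR). The call held without any single library (adjusted p = 0.00484 to 0.0367). The gene alone held 0.200 ± 0.0123% of all gene counts in nitrate and 0.489 ± 0.0474% in ammonium. In bulk RNA, fewer cells that express a gene and less RNA per cell cannot be told apart.

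The other chitin deacetylase, GL27817-G, is on scaffold 22 (753603 to 756816, plus strand). Its level was 118, 116 and 107 FPKM in nitrate, against 152, 136 and 128 FPKM in ammonium. The groups did not overlap, but the difference was small and did not pass (log2 fold change -0.29 ± 0.17, 95% interval -0.69 to 0.10, adjusted p = 0.278, edgeR). The ratio of GL29877-G to GL27817-G was 8.93, 8.82 and 8.62 in nitrate, against 14.9, 17.2 and 21.4 in ammonium. Within the same libraries GL29877-G was thus lower relative to GL27817-G in every nitrate library.

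One more gene with the chitin deacetylase identifier, GL31433-G, lacks the identifier for chitin breakdown and so is outside the rule; it was looked up after the annotation had been seen. Its level was 1127, 927 and 1104 FPKM in nitrate, against 981, 1053 and 1217 FPKM in ammonium. Its groups overlapped, with a log2 fold change of -0.05 (95% interval -0.51 to 0.41, adjusted p = 0.893, edgeR). The ratio of GL29877-G to GL31433-G in FPKM was 0.936, 1.10 and 0.833 in nitrate, against 2.31, 2.21 and 2.26 in ammonium. The more abundant of both was thus GL31433-G in nitrate replicates 1 and 3, and GL29877-G in nitrate replicate 2 and in all ammonium libraries. The 3 genes together summed to 2165 ± 123 FPKM in nitrate and 3669 ± 368 FPKM in ammonium.

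**Figure D2:**
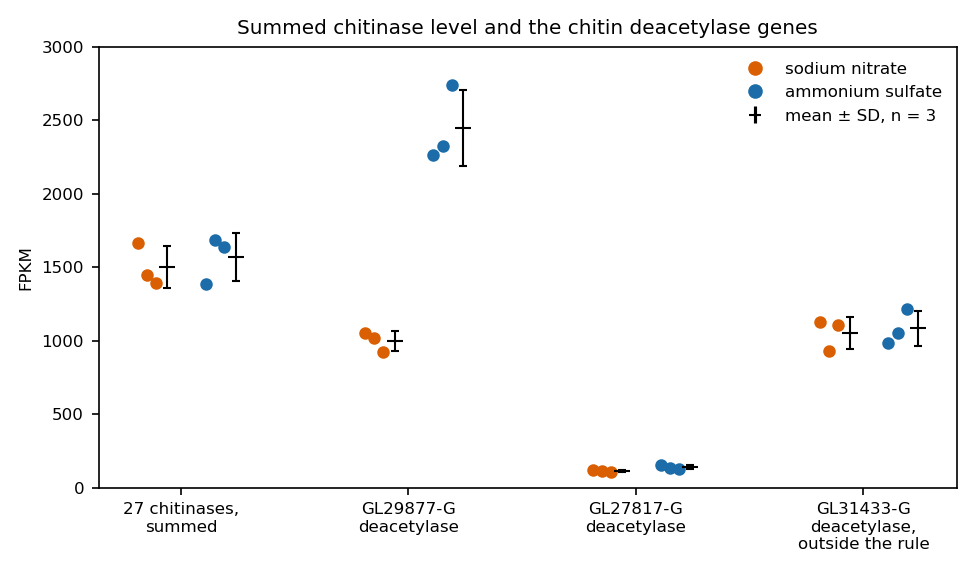
FPKM per library of the summed 27 chitinases and of 3 genes with the chitin deacetylase identifier, nitrate left of ammonium, with mean ± SD beside the points (n = 3). GL29877-G is the only one of the 4 columns whose groups lie far apart, at 998 ± 70.2 FPKM in nitrate and 2446 ± 259 FPKM in ammonium.

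The 27 chitinases summed to 1663, 1451 and 1392 FPKM in nitrate, against 1384, 1684 and 1640 FPKM in ammonium. These sums overlapped, with means of 1502 ± 143 and 1569 ± 162 FPKM in nitrate and ammonium. The summed chitinase level was 1.42, 1.28 and 1.36 times that of the 2 deacetylases in the nitrate libraries, against 0.572, 0.683 and 0.571 times in the ammonium libraries. With GL31433-G added to the deacetylases, the ratio was 0.723, 0.703 and 0.653 in nitrate, against 0.407, 0.479 and 0.401 in ammonium. The ratio was higher in every nitrate library by both sums, but it was above 1 in nitrate only for the 2 deacetylases found by the rule. Both deacetylase sums hold GL29877-G, the only called gene among them, so these ratios are not separate from its difference. GL24125-G and GL29906-G made up 75.3 to 80.0% of the chitinase sum in nitrate and 74.2 to 78.1% in ammonium. The median level of the 27 chitinases was 4.16 to 5.15 FPKM in nitrate and 3.62 to 5.04 FPKM in ammonium. GL29007-G, in the middle of the 27 by mean FPKM, ranked 8587 among all 16113 genes.

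The most abundant chitinase was GL24125-G of KOG2806, on scaffold 31 (343863 to 345313, minus strand), at rank 165 of all genes. Its level was 680, 791 and 673 FPKM in nitrate, against 727, 911 and 951 FPKM in ammonium. The groups overlapped through ammonium replicate 1, and the difference did not pass (log2 fold change -0.29 ± 0.20, 95% interval -0.75 to 0.17, adjusted p = 0.362, edgeR). Without nitrate replicate 1 and ammonium replicate 1 it was called lower (-0.43, adjusted p = 0.0481, edgeR). That fit, chosen once the data had been seen, called 21.0% of all its tested genes lower.

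The next chitinase, GL29906-G on scaffold 1 at 1677834 to 1679388, has no KOG name and carries the identifiers for chitinase activity and chitin binding. Its FPKM were 650 in nitrate replicate 1 and 323 and 375 in replicates 2 and 3, against 299, 404 and 299 in ammonium. Nitrate replicate 1 stood above all others, and the remaining libraries overlapped (log2 fold change 0.43 ± 0.32, 95% interval -0.32 to 1.18, adjusted p = 0.401, edgeR). Its model overlaps that of GL29674-G on the other strand by 77 bases, and whether counting used strand is not given in the sources used here. GL24162-G of KOG4701, on scaffold 32, was at 120, 115 and 90.1 FPKM in nitrate, against 114, 171 and 182 FPKM in ammonium (log2 fold change -0.53 ± 0.25, 95% interval -1.10 to 0.05, adjusted p = 0.188, edgeR). Ammonium replicate 1 lay among the nitrate libraries, and without that library the gene was called lower (-0.75, adjusted p = 0.0498).

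Of the 6 chitinases without a KOG name, 5 were tested and 1 was at a count of 0. Of the tested genes, 2 rose on nitrate, beside 7.50% of all tested genes, and 3 did not pass. GL18544-G, GL29255-G and GL15744-G carry the same set of 6 GO identifiers, which includes chitin binding, the extracellular region and pathogenesis, and their models span 1139 to 1164 bases on scaffolds 14, 36 and 17. GL29255-G was at 32.6, 40.6 and 43.7 FPKM in nitrate, against 19.1, 22.1 and 20.4 FPKM in ammonium. All nitrate libraries lay above all ammonium libraries (log2 fold change 0.90 ± 0.16, adjusted p = 0.0108, edgeR). It missed the threshold without ammonium replicate 3 (adjusted p = 0.0564) or without nitrate replicate 3 (adjusted p = 0.0521).

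GL18544-G was at 37.9, 35.7 and 53.7 FPKM in nitrate, against 25.7, 23.2 and 15.4 FPKM in ammonium. Its groups were also apart, with the highest value in nitrate replicate 3 and the lowest in ammonium replicate 3 (log2 fold change 0.98 ± 0.24, adjusted p = 0.0307, edgeR). The call was lost without ammonium replicate 2 (adjusted p = 0.0752), ammonium replicate 3 (adjusted p = 0.0969) or nitrate replicate 3 (adjusted p = 0.108). GL15744-G was at 14.4, 7.35 and 13.2 FPKM in nitrate, against 24.7, 23.0 and 8.38 FPKM in ammonium. Ammonium replicate 3 was low beside the other ammonium libraries, and the interval of the fold change was wide (-0.68 ± 0.43, 95% interval -1.66 to 0.30, adjusted p = 0.314, edgeR). GL26628-G, the fifth gene of this group with counts, was at 6.56, 8.72 and 10.5 FPKM in nitrate, against 6.59, 5.20 and 5.67 FPKM in ammonium (log2 fold change 0.55 ± 0.21, adjusted p = 0.113, edgeR). Nitrate replicate 1 lay among the ammonium libraries, and the gene passed without nitrate replicate 1 and ammonium replicate 1 (adjusted p = 0.0143, edgeR). That fit, chosen once the data had been seen, called 19.6% of all its tested genes higher.

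Of the 10 tested chitinases of KOG2806, 0 passed in edgeR, beside 15.6% of all tested genes. Unadjusted p-values were under 0.05 for 3 of these, beside 31.9% of all tested genes, and 1 of the 3, GL22188-G, was called by DESeq2. Fold changes ran from -0.68 to 0.65, with 4 above 0 and 6 below. GL22188-G, on scaffold 19 at 279218 to 281876, was nearest to the threshold. Its level was 22.7, 30.2 and 27.7 FPKM in nitrate, against 52.4, 30.8 and 45.1 FPKM in ammonium. The groups did not overlap, though nitrate replicate 2 and ammonium replicate 2 nearly met (log2 fold change -0.68 ± 0.20, adjusted p = 0.0564, edgeR). It passed by DESeq2 (adjusted p = 0.0209), without ammonium replicate 2 (adjusted p = 0.0461) and without nitrate replicate 1 and ammonium replicate 1 (adjusted p = 0.04996). DESeq2 called 10.8% of all its tested genes lower, and the last of these fits 21.0%.

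The other genes of KOG2806 are given to account for all members, and were named after their values had been seen. GL17641-G averaged 33.3 ± 4.67 FPKM in nitrate and 42.2 ± 4.64 FPKM in ammonium, without overlap (adjusted p = 0.149, edgeR). GL25627-G averaged 14.3 ± 2.18 FPKM in nitrate and 19.8 ± 4.62 FPKM in ammonium, with overlapping groups (adjusted p = 0.198, edgeR). GL25033-G, the member of this group with the highest fold change, averaged 7.99 ± 1.59 FPKM in nitrate and 5.11 ± 0.719 FPKM in ammonium, without overlap (log2 fold change 0.65 ± 0.23, adjusted p = 0.0995, edgeR). GL22147-G, GL29007-G, GL31157-G, GL24065-G and GL24376-G averaged 2.32 to 4.75 FPKM in nitrate and 2.42 to 4.46 FPKM in ammonium. Their groups overlapped, and their 95% intervals all held 0. The model of GL29007-G overlaps that of GL20249-G on the other strand by 158 bases.

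Of 8 tested chitinases of KOG4701, 1 rose, beside 7.50% of all tested genes. GL25941-G, on scaffold 8 at 174691 to 176514, was at 7.26, 2.81 and 1.34 FPKM in nitrate, against 0.668, 0.827 and 0.901 FPKM in ammonium. In counts these were 255, 102 and 40 in nitrate, against 24, 32 and 36 in ammonium. The groups did not overlap, but the nitrate libraries differed among themselves by 5.42 times, with replicate 1 highest and replicate 3 close to ammonium (log2 fold change 2.27 ± 0.60, 95% interval 0.88 to 3.67, adjusted p = 0.0409, edgeR). It was the largest fold change among the 26 tested genes and had the widest interval. The log2 fold change was 1.33 without nitrate replicate 1 (adjusted p = 0.0558). It passed without nitrate replicate 3 (adjusted p = 0.0214) and in none of the other fits that left out 1 library (adjusted p = 0.0558 to 0.125).

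GL17045-G of the same KOG group, on scaffold 32, had the second lowest fold change of the 26 tested genes at a low level. Its counts were 8, 13 and 19 in nitrate, against 30, 39 and 40 in ammonium, which corresponds to 0.442 ± 0.241 FPKM in nitrate and 1.06 ± 0.0936 FPKM in ammonium. The counts did not overlap, and the gene did not pass in edgeR (log2 fold change -1.25 ± 0.39, adjusted p = 0.0677), while it did by DESeq2 (adjusted p = 0.0407). GL28316-G averaged 15.4 ± 1.49 FPKM in nitrate and 13.5 ± 1.06 FPKM in ammonium (adjusted p = 0.497, edgeR). GL25816-G, GL26040-G, GL24182-G and GL21171-G averaged 0.272 to 3.40 FPKM in nitrate and 0.286 to 3.57 FPKM in ammonium, with overlapping groups. GL28316-G, GL17045-G and the genes of the last sentence were named after their values had been seen.

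**Figure D3:**
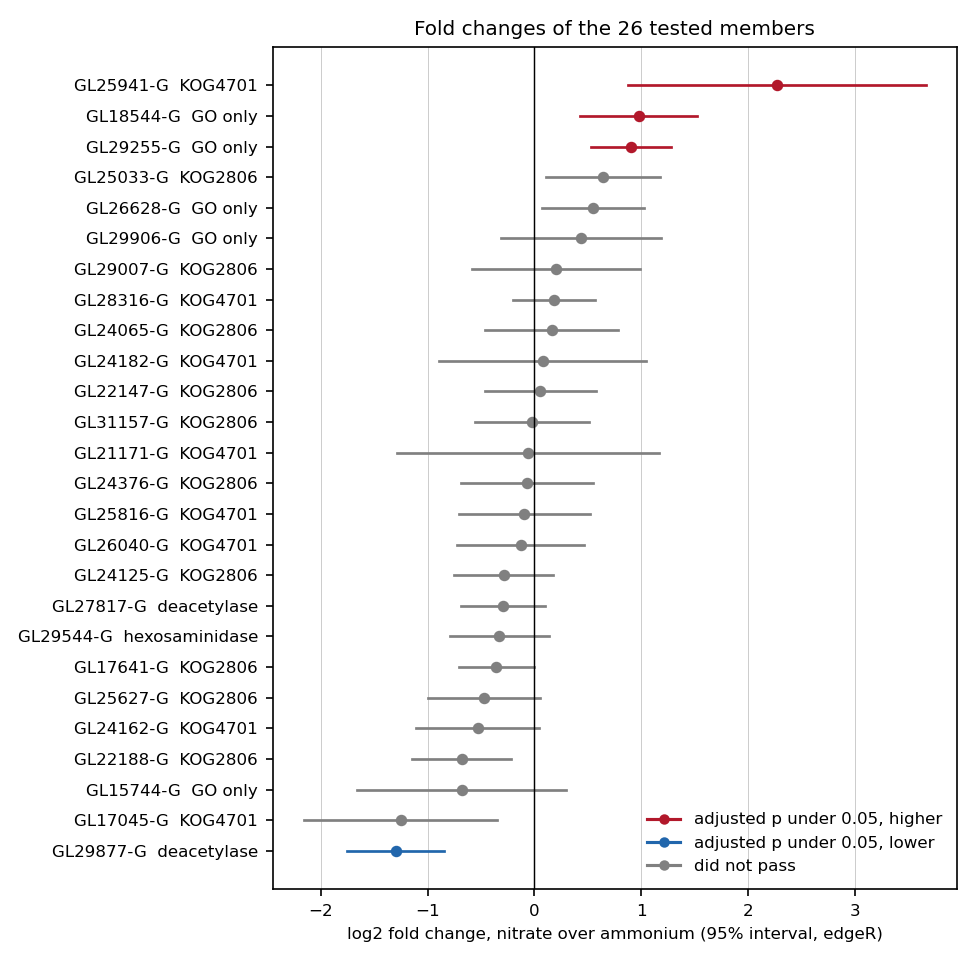
log2 fold change of nitrate over ammonium for the 26 tested genes with 95% intervals from edgeR, coloured by whether the adjusted p was under 0.05. GL25941-G at 2.27 has the highest value with a wide interval, and GL29877-G at -1.30 the lowest with a narrow one.

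The hexosaminidase-type gene GL29544-G, on scaffold 1 at 4205602 to 4207776, frees single sugar units by its annotation. It stood at 3.26, 2.70 and 3.68 FPKM in nitrate, against 3.75, 4.09 and 4.17 FPKM in ammonium. The groups did not overlap, but the difference did not pass (log2 fold change -0.33 ± 0.20, adjusted p = 0.302, edgeR). Its model overlaps that of GL30793-G on the other strand by 452 bases, a gene with 8 counts over all libraries.

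The genes shared features that the rule did not use. All 27 chitinases carried the identifier for the extracellular region, which 487 genes of the table carry. The chitin-binding identifier stood on 23 chitinases and on 24 genes in the whole table. The remaining gene, GL17512-G, was at 0.611 ± 0.154 FPKM in nitrate and 0.676 ± 0.218 FPKM in ammonium (adjusted p = 0.826, edgeR). A carbohydrate-binding identifier stood on 4 chitinases, all of KOG2806. These identifiers were transferred by annotation and were not measured.

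Of the 30 genes, 13 lay within 60000 bases of another on the same scaffold, in 5 runs. On scaffold 32, 4 genes of KOG4701 lay within 54378 bases. In that run GL17045-G and GL24182-G adjoin with 879 bases between them, and GL24162-G, the most abundant of KOG4701, lies 43147 bases from GL24182-G. On scaffold 8, 3 genes of KOG4701 lay within 18267 bases, and of these GL25941-G was called and GL26040-G and GL25816-G, on the other strand, had fold changes of -0.13 and -0.09. On scaffold 19, GL22147-G and GL22188-G lay 2874 bases apart on the same strand with 1 gene between them. GL22147-G averaged 4.66 ± 0.64 FPKM in nitrate and 4.42 ± 0.93 FPKM in ammonium, and GL22188-G averaged 26.8 ± 3.83 FPKM in nitrate and 42.8 ± 11.0 FPKM in ammonium. On scaffold 23, the neighbours GL16442-G and GL23035-G, on opposite strands, were both at a count of 0. Reads shared between close copies could not be examined, since no sequence was used here.

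**Figure D4:**
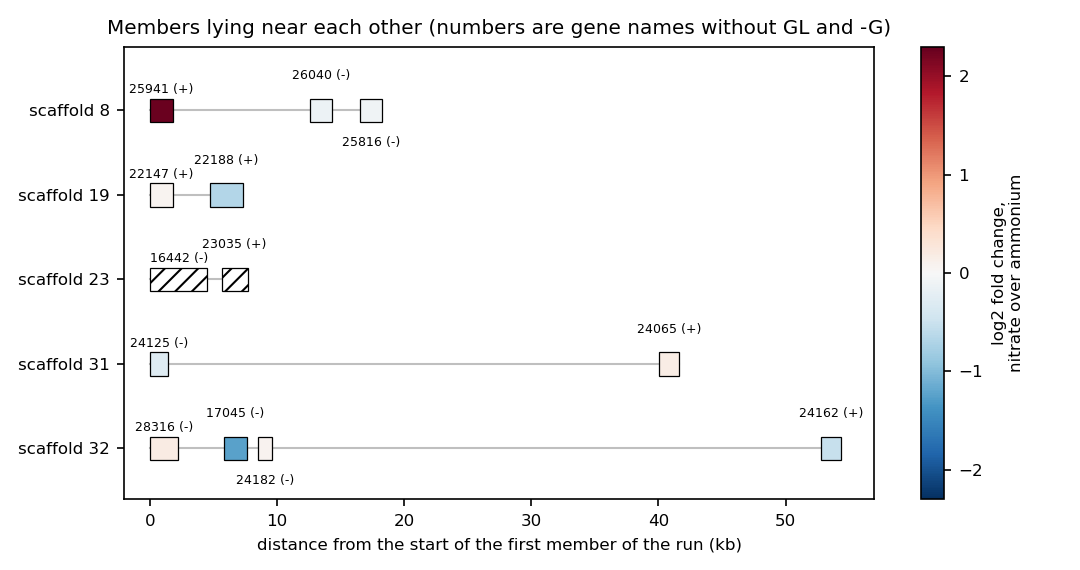
The 5 runs of neighbouring members, drawn by distance in kb from the start of the first member, with the strand beside each gene and the log2 fold change of nitrate over ammonium as fill. Hatched boxes are the 2 genes at a count of 0, and GL25941-G on scaffold 8 is the 1 called gene in these runs.

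Genes annotated to make or process the wall around these enzymes were taken by KOG words and GO identifiers, members left out. Some have KOG names that do not name the wall. Examples are the myosin-named GL31550-G and GL15273-G in chitin synthesis and the UDP-glucose:glycoprotein glucosyltransferase GL22535-G in glucan synthesis. Another is the maltase glucoamylase GL22859-G among the beta-glucosidases below. Of 8 tested genes of chitin synthesis, which add N-acetylglucosamine to the growing chain, 0 rose and 1 fell, beside 7.50% and 8.13% of all tested genes. The median log2 fold change of the list was -0.07 (edgeR). Of these 8 genes, 1 was higher at an unadjusted p under 0.05, beside 16.0% of all tested genes, and 1 by DESeq2. Without nitrate replicate 1 and ammonium replicate 1, 1 was called higher and 5 lower, beside 19.6% and 21.0% of all genes tested in that fit. The chitin synthase GL28060-G was at 1.55 ± 0.38 FPKM in nitrate and 3.83 ± 0.549 FPKM in ammonium (log2 fold change -1.32 ± 0.22, adjusted p = 0.00765, edgeR). The abundant chitin synthase GL18134-G, named after its values had been seen, averaged 399 ± 117 FPKM in nitrate and 279 ± 40.5 FPKM in ammonium and did not pass (adjusted p = 0.249, edgeR). Of 10 tested genes of glucan synthesis, 2 rose and 0 fell, with a median of 0.31 (edgeR), beside 7.50% higher and 8.13% lower of all tested genes. At an unadjusted p under 0.05, 1 was lower, beside 15.9% of all tested genes, and 0 were lower by DESeq2. Leaving out nitrate replicate 1 and ammonium replicate 1, 3 were called higher and 2 lower, again beside 19.6% and 21.0% of all genes. Those that rose were GL15036-G, with a glucan synthase KOG name, and the nearby GL20577-G, without a KOG name. GL15036-G was at 8.26 ± 0.845 FPKM in nitrate and 3.26 ± 0.330 FPKM in ammonium. GL20577-G was at 3.96 ± 0.667 and 1.55 ± 0.381 FPKM in nitrate and ammonium. Both lie on the plus strand of scaffold 10, GL20577-G at 1158355 to 1158702 and GL15036-G at 1159533 to 1161308. Whether these short models are pieces of a single gene was not tested, so they may not be 2 separate genes. GL20577-G passed in 1 of 6 fits that left out a library (highest adjusted p = 0.139, edgeR).

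Downstream of the chitinases, 0 of 8 tested genes of hexosaminidase activity and amino sugar recycling passed in edgeR, beside 15.6% of all tested genes. Unadjusted p-values were under 0.05 for 2 genes, again beside 31.9% of all tested genes, and 0 were called by DESeq2. The fold changes ran from -0.74 to 0.38, and the lowest was that of the glucosamine-6-phosphate isomerase GL25288-G, named after its values had been seen, at 17.9 ± 6.28 FPKM in nitrate and 29.5 ± 5.78 FPKM in ammonium (adjusted p = 0.0960, edgeR). Beta-glucosidases free glucose from glucan fragments, and of 18 tested 1 rose and 1 fell, beside 7.50% and 8.13% of all tested genes. GL24030-G averaged 211 ± 34.9 FPKM in nitrate and 129 ± 20.5 FPKM in ammonium (log2 fold change 0.70 ± 0.19, adjusted p = 0.0434, edgeR), a call that held in 1 of 6 fits that left out a library (highest adjusted p = 0.162). GL27550-G averaged 73.0 ± 11.5 FPKM in nitrate and 185 ± 40.9 FPKM in ammonium (log2 fold change -1.34 ± 0.24, adjusted p = 0.0108, edgeR), and also carries the identifier for cellulose breakdown.

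Since no KOG name contained glucanase, glucan hydrolases were also looked up by 6 GO identifiers, a list added after the annotation had been seen. It holds 27 genes, of which 26 were tested, and shares 8 with the beta-glucosidases (42.1% of those and 29.6% of the glucan hydrolases). Among its genes, GL23795-G and GL23866-G have the KOG name of beta-glucocerebrosidase. In it 2 genes rose and 1 fell, with 13 fold changes above 0 and 13 below, beside 7.50% called higher and 8.13% lower of all tested genes. The 2 that rose were GL24030-G, above, which also has the exo-acting glucan glucosidase identifier, and GL19326-G at 1.28 ± 0.148 FPKM in nitrate and 0.520 ± 0.0772 FPKM in ammonium. GL19326-G missed the threshold in 4 of 6 fits that left out a library (highest adjusted p = 0.0947, edgeR). GL23820-G, which fell, averaged 19.6 ± 2.62 FPKM in nitrate and 41.6 ± 5.97 FPKM in ammonium (log2 fold change -1.09 ± 0.20, adjusted p = 0.0121, edgeR), and also carries the identifier for cellulose breakdown. It missed the threshold in 3 of 6 such fits (highest adjusted p = 0.0573). The most abundant gene of the list, GL25813-G, with the endo-acting beta-glucan identifier, averaged 500 ± 38.5 FPKM in nitrate and 680 ± 68.2 FPKM in ammonium without overlap and did not pass (log2 fold change -0.45 ± 0.18, adjusted p = 0.123, edgeR). Without nitrate replicate 1 and ammonium replicate 1, 5 genes of this list were called higher and 4 lower, beside 19.6% and 21.0% of all genes.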

How the data were processed

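The authors deposited 1 table over all genes, with read counts, TPM and FPKM for each library, per the file headers. The counts are whole numbers with totals that differ between libraries. TPM were deposited by the authors and not used further, and FPKM served as levels, as deposited. Messenger RNA was isolated before library preparation, per the labels' protocols. Not given in the sources used here are the aligner, counter, genome build, annotation version and strand setting. No genome or sequence was used.

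Libraries were grouped by title. Counts were tested in edgeR 4.0.16 under R 4.3.3 by quasi-likelihood on the counts of all 6 libraries, with TMM factors, filterByExpr and robust estimates, no block, and Benjamini-Hochberg adjustment over 11993 genes. The SE was derived from the F statistic. The steps were tested on simulated data. Alternatives were DESeq2 1.42.0, RLE factors, no filter, a minimum of 50 counts (3 libraries), a replicate block, a 2-fold threshold, leaving out each library, and limma 3.58.1 on log2(FPKM + 1) and log2(FPKM + 0.1) for genes of at least 1 FPKM in 3 libraries. A fit without nitrate replicate 1 and ammonium replicate 1 was chosen after seeing the data.

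The members and lists were chosen with earlier results of these data known. Named by rule were called members, the 3 most abundant of each role, the 5 members of largest absolute fold change with at least 5 FPKM in the higher group, and called genes of context lists (up to 3 each). The planned order of roles set deacetylases and glucanases by KOG name, and then chitinases by KOG name or GO. By that order GL29877-G, GL27817-G and GL29544-G, which carry the chitin breakdown identifier, would count as chitinases. Since no KOG name contained chitin deacetylase, the role of a gene with no KOG name was instead set by its GO activity identifier. The contrast of chitinases with deacetylases and the ratios of their sums rest on this choice. As a possible sign of fruiting tissue, genes annotated to meiosis were examined, and hydrophobins of any growth form.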

Additional observations from a re-analysis of the deposited data

How the results depend on the processing

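No called member changed direction under any alternative run. Over the 26 tested members and all settings, 330 fold changes stayed on their side of the threshold, 16 lost the call and 10 gained one. With the replicate block, 0 of the members, 85 genes higher and 140 lower over all tested genes, 0 of chitin synthesis, 0 of glucan synthesis and 0 of beta-glucosidases were called. GL29877-G then had an adjusted p of 0.0883. Same-numbered libraries deviated in opposite senses (correlations of -0.66, -0.35 and -0.46). With 3 libraries a group, these correlations cannot show whether the numbers pair the libraries, and the labels state no pairing. Without nitrate replicate 1 and ammonium replicate 1, 6 members were called lower, 2364 of all tested genes higher and 2534 lower, and called genes numbered 6 in chitin synthesis (1 higher, 5 lower), 5 in glucan synthesis (3 higher, 2 lower), 1 in amino sugar recycling (higher) and 7 in beta-glucosidases (5 higher, 2 lower). That fit has 2 libraries a group. DESeq2 called 3 members lower, 2 genes of chitin synthesis and 4 beta-glucosidases. A 2-fold threshold left 1 member higher, 532 of all tested genes higher and 564 lower, and 1 beta-glucosidase. With at least 50 counts in 3 libraries, 22 members were tested, without GL25941-G, and 1 gene of glucan synthesis was called.

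Leaving out 1 library gave 0 to 2 members higher and 1 to 2 lower. Over all tested genes it gave 273 to 910 higher and 382 to 1036 lower. It gave 1 to 3 genes of glucan synthesis and 1 to 4 beta-glucosidases. The cause of these shifts was not tested. Under RLE factors the same 4 members were called, in the same directions. In both limma fits GL18544-G and GL29255-G were called higher and GL29877-G lower. GL25941-G did not pass by limma (adjusted p = 0.0720 on log2(FPKM + 0.1) and 0.0939 on log2(FPKM + 1)). GL17045-G had 8 to 40 counts per library and GL25941-G 24 to 255.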

Other observations

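The 3 genes on each side of the called members were picked by position alone. Around GL29877-G, the 6 log2 fold changes were all below 0, from -0.44 to -0.12, and the smallest adjusted p was 0.200 (edgeR). Among them GL30469-G, with the KOG name of the phosphatase inhibitor SET, was at 134 FPKM in nitrate and 171 FPKM in ammonium (log2 fold change -0.36, adjusted p = 0.408, edgeR). Around GL25941-G the smallest adjusted p was 0.0542, that of GL25815-G, without a KOG name, at 4.65 FPKM in nitrate and 2.79 FPKM in ammonium. Around GL18544-G and GL29255-G the smallest were 0.104 and 0.197, and some of these genes had too few counts to be tested.

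Genes of meiosis were taken by annotation as a possible sign of fruiting tissue. Some of those called have KOG names that do not name meiosis, such as the polyadenylate-binding protein GL26592-G and the vigilin GL29899-G. Of 80 tested genes of this list, 5 were higher and 9 lower in nitrate (edgeR). Of 19 tested hydrophobins, small secreted proteins that coat hyphae, 4 were higher and 2 lower (edgeR). Both stand beside 7.50% higher and 8.13% lower of all tested genes. DESeq2 called 6 higher and 13 lower of the meiosis genes, and 6 higher and 4 lower of the hydrophobins, beside 11.0% and 10.8% of all genes it tested. Without nitrate replicate 1 and ammonium replicate 1, these counts were 10 and 26 for meiosis and 8 and 3 for hydrophobins, beside 19.6% and 21.0%. Their part in the results above was not tested. The hydrophobin GL18877-G, named after its values had been seen, averaged 4601 ± 605 FPKM in nitrate and 2877 ± 414 FPKM in ammonium (log2 fold change 0.67, adjusted p = 0.0437, edgeR), above every chitin-degrading gene.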
